A study of Mus musculus with 12 samples.

Results

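UDP-glucuronosyltransferases (UGTs) are described here through 10 genes, Ugt1a1, Ugt1a6a, Ugt1a9, Ugt2a3, Ugt2b1, Ugt2b5, Ugt2b34, Ugt2b35, Ugt2b36 and Ugt3a2. They were chosen by name, not by a measured change, and found by matching the Ensembl identifiers of the count table to gene symbols. The table listed 22 Ugt genes among 54839 features, and all 10 members, like 19 of the 22 Ugt genes, passed the filter on low counts that left 17121 genes for testing. The 12 bulk RNA-seq libraries came from sorted hepatocytes in 4 groups of 3: Tom- oil, Tom+ oil, Tom- CCl4 and Tom+ CCl4. All mice were male, heterozygous p16-Tom animals of C57BL/6 background, in which p16-CreERT2 and a Cre-dependent tdTomato allele in the Rosa26 locus mark cells that express p16Ink4a while tamoxifen is present, and the mark then stays. Tamoxifen was given at 80 mg/kg, control mice received corn oil, and treated mice received CCl4, a solvent toxic to hepatocytes, at 1 mL/kg by repeated injection for 4 weeks. After perfusion, low-speed spins and a sort of live cells by the reporter, polyadenylated RNA was read in strand-specific libraries. The ages of the mice are not given in the sources used here. The CreERT2 allele follows the p16Ink4a promoter in any cell type, so the reporter itself is not restricted to hepatocytes, and the labels do not state whether Tom+ and Tom- libraries of the same number came from the same mouse.

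Total counts ranged from 37568669 to 75331523 per library, with a median of 47910873. The reporter went against the labels of a pair of oil libraries. In CPM, the count divided by the TMM-adjusted library size and scaled alike in all libraries, it was at 1794 CPM in the library labelled Tom- oil replicate 1 and at 135 CPM in the library labelled Tom+ oil replicate 2, whereas the other Tom- libraries were at 119.7 to 263 CPM and the other Tom+ libraries at 1225 to 1546 CPM. Fractions of oil mice are therefore named as labelled, and several results of the members from deposited counts are also given without both libraries. Other results that rest on these libraries are not given without both, among them those of the gene lists and of Ugt1a counts without their shared part. The summed level of 6 hepatocyte markers, among them Alb and Hnf4a, was 89010 to 133900 CPM in every library. The sum of 5 bile duct markers was 5.25 to 7.38 CPM in oil, from Sox9 (1.415 to 3.38 CPM), Spp1 (2.5 to 4.87 CPM) and Epcam (0 to 0.211 CPM), while Krt19 and Krt7 were at 0 in all 6 oil libraries and at no more than 0.292 and 0.109 CPM in the CCl4 libraries. Nothing in the labels says which libraries came from separate animals, so that p-values measure the spread between these libraries, and fewer cells of a type and less RNA per cell cannot be told apart in bulk samples.

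UGTs sit in the membrane of the endoplasmic reticulum and join a sugar, in most cases glucuronic acid taken from UDP-glucuronic acid, to bilirubin, steroids, bile acids, phenols and drugs, which makes them water-soluble enough to leave in bile or urine. The liver is the main site of this conjugation. Ugt1a1 conjugates bilirubin, the Ugt1a6 enzymes conjugate flat phenols, Ugt1a9 conjugates bulkier phenols and many drugs, and the Ugt2b enzymes act on steroids and drugs. The UGT3A enzymes of humans use UDP-sugars other than UDP-glucuronic acid.

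The genes of the Ugt1a family are built from a first exon of their own, which encodes the part of the enzyme that binds the substrate, and from exons 2 to 5, which all 9 of them share. In the deposited table these 4 shared exons lay on mm10 at chromosome 1 between 88215044 and 88218997 and held 1311 bases in each Ugt1a gene. The sequence across the junction is shown for the 3 members, for Ugt1a6b, which is most like Ugt1a6a, and for Ugt1a5, which is described further on, with the last 30 bases of the first exon in lower case and the first 30 bases of shared exon 2 in capitals (GENCODE vM21 transcripts, plus strand).
Ugt1a9: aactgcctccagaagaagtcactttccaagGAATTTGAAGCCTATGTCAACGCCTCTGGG
Ugt1a6b: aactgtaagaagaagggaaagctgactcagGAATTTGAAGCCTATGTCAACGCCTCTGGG
Ugt1a6a: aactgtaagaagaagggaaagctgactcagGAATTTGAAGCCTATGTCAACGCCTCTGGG
Ugt1a5: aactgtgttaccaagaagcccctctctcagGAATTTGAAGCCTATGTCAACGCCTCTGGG
Ugt1a1: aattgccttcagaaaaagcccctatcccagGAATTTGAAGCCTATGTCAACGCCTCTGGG
The capital part is the same in all 9 genes, so a read that lies wholly in it belongs to no single gene. Ugt1a6a and Ugt1a6b also have the same 30 bases before it, and so do Ugt1a5 and Ugt1a2, which is not shown. Over their whole first exons Ugt1a6a and Ugt1a6b were 95.1% identical, and Ugt1a5 and Ugt1a2 81.4%. The first exon of Ugt1a9 was 87.8% identical to that of Ugt1a10 and 60.1% to that of Ugt1a1.

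These structures set how far each count can be read. Exon bases annotated for that gene alone made up 17.3% of Ugt1a1, 49.7% of Ugt1a6a and 40.1% of Ugt1a9, against 100% of each Ugt2 and Ugt3 member. Ugt1a1 lies at 88211959 to 88218997 and is also overlapped by Gm20528, a gene annotated on the opposite strand, whose count stood at 47.8% to 52.4% of the Ugt1a1 count in each library. The libraries were strand-specific, but the strand setting of the counting is not given in the sources used here, so that reads of Ugt1a1 and Gm20528 cannot be told apart. Ugt1a6a spans 88134809 to 88218997 and Ugt1a9 spans 88070800 to 88218997. The Ugt2 members lie on chromosome 5, from Ugt2b34 (86889767 to 86906937) and Ugt2b1 (86916638 to 86926530) through Ugt2b35 (87000860 to 87013275), Ugt2b36 (87065927 to 87092555) and Ugt2b5 (87124960 to 87140318) to Ugt2a3 (87324972 to 87337195). Ugt3a2 lies on chromosome 15 (9335550 to 9370955) beside Ugt3a1. Similar sequence also matters outside the Ugt1a locus. Of the 50-base words in Ugt2b5 transcripts, 41.7% also occurred in another gene, most of these in Ugt2b38, whereas the share was 7.01% for Ugt3a2, 4.55% for Ugt2a3, 1.44% for Ugt2b34, 0.303% for Ugt2b35, 0.285% for Ugt2b36 and 0 for Ugt2b1. Deposited values of Ugt1a1, Ugt1a6a, Ugt1a9 and Ugt2b5 were not whole numbers in 12 of 12 libraries, and those of Ugt2b1 and Ugt2b35 in 3 of 12.

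Levels of different genes were compared per length as TPM, the count divided by the length of the gene and scaled to the same sum in every library. Ugt2b5 had the highest level in every group, at 727 ± 51.1 TPM (SD, n = 3) in Tom- oil and 672.5 ± 70.5 TPM in Tom+ CCl4, and its libraries did not overlap those of the gene ranked next in any group. Ugt2b36 and Ugt2a3 held the next places, at 534 ± 34.9 and 489 ± 33.2 TPM in Tom- oil, where their libraries overlapped. Ugt3a2 came next in Tom- oil at 362 ± 54.7 TPM, followed by Ugt1a1 at 309 ± 42.4 TPM and Ugt2b1 at 300.5 ± 36.1 TPM. There Ugt3a2 overlapped Ugt1a1, and Ugt1a1 overlapped Ugt2b1. In both CCl4 groups the order differed here, with Ugt3a2 behind Ugt1a1 and Ugt2b1 at 279.5 ± 23.3 TPM in Tom- CCl4 and 270 ± 22.2 TPM in Tom+ CCl4. The libraries of Ugt2b1 and Ugt3a2 overlapped in Tom- CCl4. Ugt2b34 was at 189.8 ± 24.5 TPM in Tom- oil and at 250.4 ± 31.5 TPM in Tom+ CCl4. Ugt1a9 was at 141 ± 25.2 TPM in Tom- oil and 210 ± 14.4 TPM in Tom- CCl4. Ugt2b35 and Ugt1a6a were lowest in every group, at 80.9 ± 11.5 and 62.7 ± 8.7 TPM in Tom- oil. For the Ugt1a genes both the count and the length include the shared exons, so their places in this order depend on how shared reads were divided. By CPM, which is not corrected for length, Ugt3a2 had rank 2 rather than rank 4 in both oil groups.

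**Figure D1:**
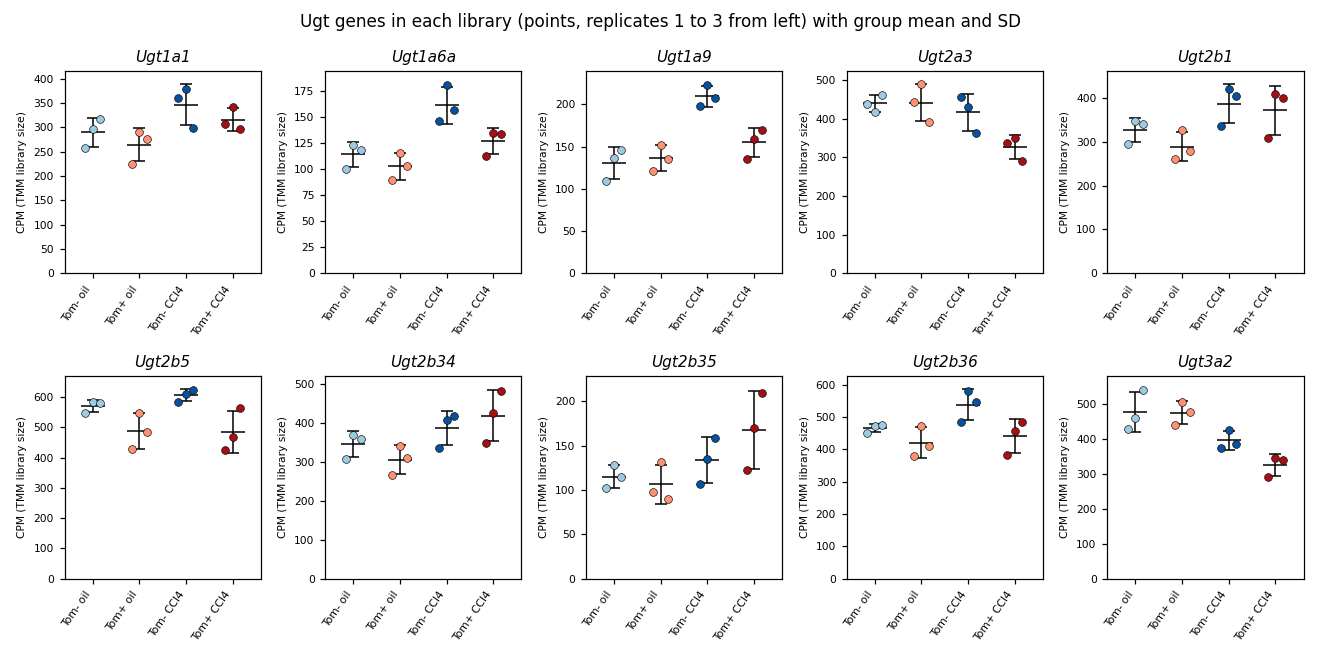
Level of each of the 10 Ugt genes in CPM with TMM library sizes (vertical axes, from 0) in the 12 libraries, as points by group, with the mean and SD of 3 libraries as a bar. Ugt1a9 stands at 198 to 223 CPM in Tom- CCl4, above the 109 to 170.1 CPM of the other groups, and Ugt3a2 is at 289 to 344 CPM in Tom+ CCl4, below the other groups.

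The first question was how CCl4 changed the UGTs of Tom- hepatocytes. Ugt1a9 was at 109, 137 and 146 CPM in the libraries labelled Tom- oil and at 198, 223 and 208 CPM in Tom- CCl4. Ugt1a6a was at 101, 123 and 119 CPM in oil and at 146, 181 and 157 CPM in CCl4. For both genes every CCl4 library was above every oil library. Ugt1a9 was higher by 0.68 on the log2 scale (SE 0.12, 1.603-fold, adjusted p = 0.0032, edgeR's quasi-likelihood test with Benjamini-Hochberg adjustment over all 17121 genes) and Ugt1a6a by 0.50 (SE 0.12, 1.41-fold, adjusted p = 0.014). Both passed the adjusted p of 0.05 but not the log2 fold threshold of 0.75 taken from the study, so that 0 of 10 members were called, against 7.92% of all genes. Ugt1a9 and Ugt1a6a were 2 of 10 members past the adjusted p alone, where 16.1% of all genes passed, and 3 members were at an unadjusted p under 0.05, against 31.5%. These are not separate results, since both deposited counts hold reads of the shared exons. Above the part common to the Ugt1a genes, taken up further on, Ugt1a6a was at 0.21 (adjusted p = 0.288) and Ugt1a9 at 0.89 (adjusted p = 0.00482) in edgeR's test. DESeq2 also called 0 members with both thresholds (8.9% of its genes) and 2 by adjusted p alone (18.4%). Without the pair of oil libraries at odds with the reporter, Ugt1a9 was higher by 0.57 (adjusted p = 0.0122), whereas Ugt1a6a was at 0.42 with an adjusted p of 0.0501. Ugt1a6a was at 0.41 without Tom- oil replicate 1 (adjusted p = 0.066) and at 0.41 without Tom- CCl4 replicate 2 (adjusted p = 0.0692). Without Tom- oil replicate 3 the difference of Ugt1a9 was 0.77, past both thresholds.

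The other Ugt1a member, Ugt1a1, was at 258, 296 and 317 CPM in Tom- oil and at 360.4, 379.9 and 299.6 CPM in Tom- CCl4, where replicate 3 lay within the range of the oil libraries. Its difference of 0.26 (SE 0.12) had an adjusted p of 0.171. Ugt3a2 was at 427, 459 and 539 CPM in oil and at 374.5, 426 and 384.5 CPM in CCl4, which did not overlap, with a difference of -0.27 (SE 0.11, adjusted p = 0.112). Ugt2b36 was the other member with separated groups, at 449.9 to 474 CPM in oil and 486 to 581 CPM in CCl4 (log2 difference 0.21, adjusted p = 0.227). Hence 3 members were higher without overlap, against 19.3% of all genes, and 1 was lower, against 16.8%. The Ugt2 members Ugt2a3, Ugt2b1, Ugt2b5, Ugt2b34 and Ugt2b35 overlapped between the groups, with differences from -0.08 for Ugt2a3 to 0.24 for Ugt2b1. The median over the members was 0.21, beside 0.00459 for all genes.

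In Tom+ hepatocytes other members stood out. Ugt3a2 was at 439, 505 and 477 CPM in the libraries labelled Tom+ oil and at 289, 344 and 340.1 CPM in Tom+ CCl4. Ugt2a3, whose human counterpart conjugates bile acids, was at 442, 488 and 392 CPM in oil and at 337, 349.6 and 291 CPM in CCl4. Neither gene's groups overlapped. Ugt3a2 was lower by 0.55 on the log2 scale (log2 difference -0.55, SE 0.11, 0.685-fold, adjusted p = 0.0076, edgeR's quasi-likelihood test) and Ugt2a3 had a difference of -0.44 (SE 0.11, 0.739-fold, adjusted p = 0.0278). Again 0 of 10 members were called with both thresholds, against 5.24% of all genes, and 2 of 10 passed the adjusted p alone, against 9.47%, with 6 at an unadjusted p under 0.05, against 24.4%. DESeq2 called 0 with both thresholds (6% of its genes) and 4 by adjusted p alone (11.6%), with Ugt2b34 and Ugt2b35 added on the higher side. Without the pair of oil libraries at odds with the reporter, Ugt3a2 was at -0.49 (adjusted p = 0.032), whereas Ugt2a3 was at -0.35 (adjusted p = 0.142). The adjusted p of Ugt2a3 was also above 0.05 when Tom+ oil replicate 1 (0.0818), Tom+ oil replicate 2 (0.111), Tom+ CCl4 replicate 1 (0.0532) or Tom+ CCl4 replicate 3 (0.131) was left out.

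Ugt2b34 was at 268, 342 and 309.8 CPM in Tom+ oil and at 349.7, 427 and 482 CPM in Tom+ CCl4, which did not overlap, and its difference of 0.45 (SE 0.13) had an adjusted p of 0.0507. Over the single left-out libraries this adjusted p ran from 0.0236 to 0.224. Ugt2b35 had the highest fitted difference of the members at 0.65 (SE 0.21, adjusted p = 0.0694), from 98.2, 131 and 89.3 CPM to 122, 170.1 and 209.6 CPM, and replicate 1 of the CCl4 libraries lay within the oil range. Without that library the difference was 0.83 (adjusted p = 0.0192), past both thresholds, and without Tom+ oil replicate 2 it was 0.83 as well (adjusted p = 0.0481). Over the single left-out libraries it was as low as 0.46, and its adjusted p rose to 0.274 without Tom+ CCl4 replicate 3. Ugt2b35 passed the adjusted p in 5 of 21 alternatives. Ugt1a1 was the other member above oil without overlap, at 297 to 343 CPM against 226 to 291 CPM (0.26, SE 0.12, adjusted p = 0.216). Ugt1a6a, Ugt1a9, Ugt2b1, Ugt2b5 and Ugt2b36 overlapped. Separated groups were thus found for 2 members on the higher side, beside 14.6% of all genes on that side, and for 2 on the lower side, also beside 14.6%. The median over the members was 0.22, beside 0.00197 for all genes. With library totals in place of TMM, chosen after seeing the data, the median of all genes shifted by 0.0883. By adjusted p alone in edgeR's test, Ugt1a6a, Ugt2b1, Ugt2b34 and Ugt2b35 were then higher (adjusted p from 0.0156 to 0.041). Ugt3a2 was lower (-0.46, adjusted p = 0.0127). The share of all genes that passed with this setting is not given, so these passes are not read as a result about the members.

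**Figure D2:**
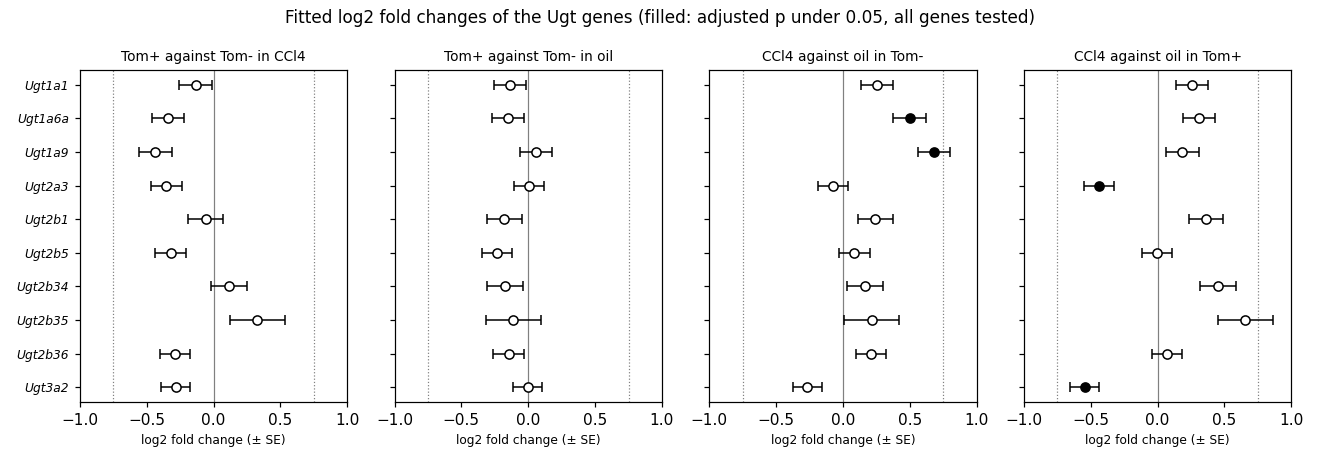
Fitted log2 fold changes of the 10 Ugt genes (horizontal axis, with SE bars) in each of 4 comparisons, with filled points for an adjusted p under 0.05 over all genes tested and dotted lines at the fold threshold of 0.75 in both directions. Filled points are Ugt1a6a (0.50) and Ugt1a9 (0.68) for CCl4 against oil in Tom-, and Ugt2a3 (-0.44) and Ugt3a2 (-0.55) for CCl4 against oil in Tom+, and no point lies beyond a dotted line. The Ugt1a points are for counts as deposited, which hold reads of the shared exons.

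The comparison of Tom+ with Tom- hepatocytes within CCl4 mice asked whether cells marked for p16Ink4a differ from their neighbours. It shares its Tom- CCl4 and Tom+ CCl4 libraries with the comparisons above. Ugt1a9 was at 198, 223 and 208 CPM in Tom- CCl4 and at 136, 159 and 170.1 CPM in Tom+ CCl4. Ugt2a3 was at 456, 429 and 363 CPM in Tom- CCl4 and at 337, 349.6 and 291 CPM in Tom+ CCl4. The libraries of 6 members did not overlap and were lower in Tom+ CCl4, namely Ugt1a6a, Ugt1a9, Ugt2a3, Ugt2b5, Ugt2b36 and Ugt3a2, against 14.6% of all genes on that side. Ugt1a6a is among them by its count as deposited, whereas its part above the count shared by the Ugt1a genes, taken up further on, was at 26.2 to 30.9 CPM in Tom- CCl4 and 23.6 to 31.5 CPM in Tom+ CCl4, which overlapped. Their fitted differences ran from -0.44 for Ugt1a9 (SE 0.12, adjusted p = 0.053, edgeR's quasi-likelihood test) to -0.28 for Ugt3a2 (SE 0.11, adjusted p = 0.143). Without the pair of oil libraries at odds with the reporter, which are in neither of these groups, Ugt1a9 was at -0.45 (adjusted p = 0.0266). Over the single left-out libraries it ran from -0.51 to -0.35, with an adjusted p from 0.0378 to 0.2, the latter without Tom- CCl4 replicate 2. Ugt1a9 passed the adjusted p in 7 of 21 alternatives. With both thresholds 0 of 10 members were called, against 1.96% of all genes, and by adjusted p alone also 0, against 5.79%, while 6 were at an unadjusted p under 0.05, against 22.8%. DESeq2 called 0 with both thresholds (3.38% of its genes) and 2 by adjusted p alone (11.2%), Ugt1a9 and Ugt2a3. Libraries with the same number deviated together in this comparison, and in the fit with the replicate block 7 of 10 members passed the adjusted p alone, 6 lower and Ugt2b35 higher, against 17.7% of all genes, and 0 passed both thresholds, against 3.98%. The blocked values were -0.44 for Ugt1a9 (adjusted p = 0.00154), -0.34 for Ugt1a6a (0.00323, but -0.034 and 0.776 above the shared count), -0.33 for Ugt2b5 (0.0101), -0.35 for Ugt2a3 (0.0102), -0.29 for Ugt2b36 (0.0135), -0.29 for Ugt3a2 (0.0177) and 0.31 for Ugt2b35 (0.0169).

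The abundant Ugt2b genes of this comparison showed the spread within a group. Ugt2b5 was at 583.5, 612 and 624 CPM in Tom- CCl4 and at 426.5, 467 and 563 CPM in Tom+ CCl4. Ugt2b36 was at 486, 581 and 547 CPM in Tom- CCl4 and at 382, 456 and 484 CPM in Tom+ CCl4. In both genes the highest Tom+ library came close to the lowest Tom- library. Ugt1a1, Ugt2b1, Ugt2b34 and Ugt2b35 overlapped, with differences of -0.13, -0.06, 0.11 and 0.33. The 10 members together made up 3580 ± 205 CPM in Tom- CCl4 and 3132 ± 319 CPM in Tom+ CCl4. With library totals in place of TMM, a setting chosen after seeing the data that shifted the median of all genes by 0.147, Ugt1a1 and Ugt2b1 turned to 0.013 and 0.085, and the median of the members was -0.14 in place of -0.29.

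Other genes moved with the fractions in the same libraries. Of 7 genes known from hepatocytes near the portal vein (zone 1), 4 were called lower in Tom+ CCl4 against Tom- CCl4, Sds, Cyp2f2, Hsd17b13 and Gls2, and the summed level of the list was 4533 to 5807 CPM against 7440 to 9326 CPM. For 7 genes of hepatocytes around the central vein (zone 3) the sum was 3054 to 4107 CPM in Tom+ CCl4 against 1295 to 2189 CPM in Tom- CCl4, with 0 of 7 called in edgeR's fit without a block and 6 past the adjusted p with it. Of 5 endothelial markers, 4 were called lower, and their sum was 101 to 135 CPM against 192 to 208 CPM. The sum of the hepatocyte markers was 95100 to 106000 CPM in Tom+ CCl4 and 123200 to 133900 CPM in Tom- CCl4. Stellate cell and fibroblast markers summed to 45.7 to 91.5 CPM and 60.2 to 77.1 CPM, macrophage and leukocyte markers to 32.5 to 92.4 CPM and 56.8 to 84 CPM, and bile duct markers to 8.8 to 17.9 CPM and 8.47 to 12.9 CPM. Between oil and CCl4, stellate markers rose for 5 of 6 genes in Tom- and 4 of 6 in Tom+, endothelial markers for 5 of 5 in Tom- and 0 of 5 in Tom+, while 6 of 7 zone 1 genes fell and 3 of 7 zone 3 genes rose in Tom+. Among bile duct markers only 2 of 5 could be tested, and Spp1 rose in Tom+. None of the 5 macrophage and leukocyte markers was called in any comparison. With the replicate block 5 of 5 passed the adjusted p for CCl4 against oil in Tom-, but there the numbers do not pair libraries of different mice. The part of these shifts in the UGT values was not tested.

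In oil mice the fractions as labelled did not separate the members. Ugt2b5 alone did not overlap, at 549, 585 and 581 CPM in the libraries labelled Tom- and at 428, 546 and 486 CPM in those labelled Tom+ (log2 difference -0.23, SE 0.11, adjusted p = 0.732, edgeR's quasi-likelihood test), against 5.57% of all genes that were lower without overlap. With both thresholds and with the adjusted p alone, 0 of 10 members passed, as did 0% of all genes, and 0 members were at an unadjusted p under 0.05, against 7%. DESeq2 also passed 0 members (0.0698% of its genes with both thresholds and 0.14% by adjusted p alone), with 1 at an unadjusted p under 0.05. Fitted differences ran from -0.23 for Ugt2b5 to 0.06 for Ugt1a9, and the median was -0.14. Without the pair of libraries at odds with the reporter, which leaves 2 libraries on each side, they ran from -0.39 for Ugt2b35 (adjusted p = 0.889) to -0.09 for Ugt2a3 (adjusted p = 0.984), so that all 10 were below 0 and none passed the test.

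The test of whether the difference between fractions itself changed with CCl4 (Tom+ against Tom-, CCl4 minus oil) gave 0 of 10 members with both thresholds, against 1.17% of all genes, and 0 by adjusted p alone, against 1.55%, with 2 at an unadjusted p under 0.05, against 18.6%. DESeq2 likewise gave 0 members by either rule, against 3.85% and 6.71% of its genes. In the fit with the replicate block 2 members passed the adjusted p alone, Ugt1a9 on the lower side and Ugt2b35 on the higher side, against 12.5% of all genes, and 0 passed both thresholds, against 5.48%. Ugt1a9 was at -0.49 (SE 0.17, adjusted p = 0.149) without the block and at -0.50 (adjusted p = 0.00844) with it, and Ugt2b35 at 0.44 (SE 0.29, adjusted p = 0.448) and at 0.44 (adjusted p = 0.0233). Without the pair of oil libraries at odds with the reporter they were at -0.29 (adjusted p = 0.451) and 0.70 (adjusted p = 0.342) in the fit without the block. In the same test 3 of 7 zone 1 genes were called lower, and by adjusted p with the replicate block 6 of 7 zone 1 genes were lower, 6 of 7 zone 3 genes higher and 5 of 5 endothelial genes lower. Within oil 0 of 7 zone 3 genes had a positive difference, with a median of -1.15 and 4 lower by adjusted p with the block, opposite to CCl4. The part of these lists in the values of Ugt1a9 and Ugt2b35 was not tested.

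Because the Ugt1a counts contain shared reads, they were also taken apart. Ugt1a2, Ugt1a8 and Ugt1a10 differed from each other by at most 0.5% in any library, and one of them was the lowest of the 9 genes in 12 of 12 libraries. Their count is what a Ugt1a gene received when nearly all of its reads lay in the shared exons, and it was subtracted from the other Ugt1a genes in each library, which takes every gene to have received the same share. As deposited, Ugt1a2 was higher in Tom- CCl4 than in Tom- oil by 0.57 (SE 0.12, adjusted p = 0.00749, edgeR's quasi-likelihood test) and differed by 0.31 in Tom+ (adjusted p = 0.129). This common part was 30.9% of the Ugt1a1 count (median over 12 libraries), 62.7% of Ugt1a9 and 78.1% of Ugt1a6a. Taken 9 times, once for each gene, it was 69.8%, 74.1% and 72.9% of all Ugt1a counts in Tom- CCl4, and 65.8% to 68.8% in the other groups. The Ugt1a locus as a sum was at 1179 ± 124.5 CPM in Tom- oil, 1081 ± 145 CPM in Tom+ oil, 1646 ± 154 CPM in Tom- CCl4 and 1341 ± 105 CPM in Tom+ CCl4. As 1 gene, which was tried only after the values had been seen, the sum differed between CCl4 and oil by 0.48 in Tom- (SE 0.12, adjusted p = 0.0181, edgeR's quasi-likelihood test) and by 0.31 in Tom+ (adjusted p = 0.136).

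**Figure D3:**
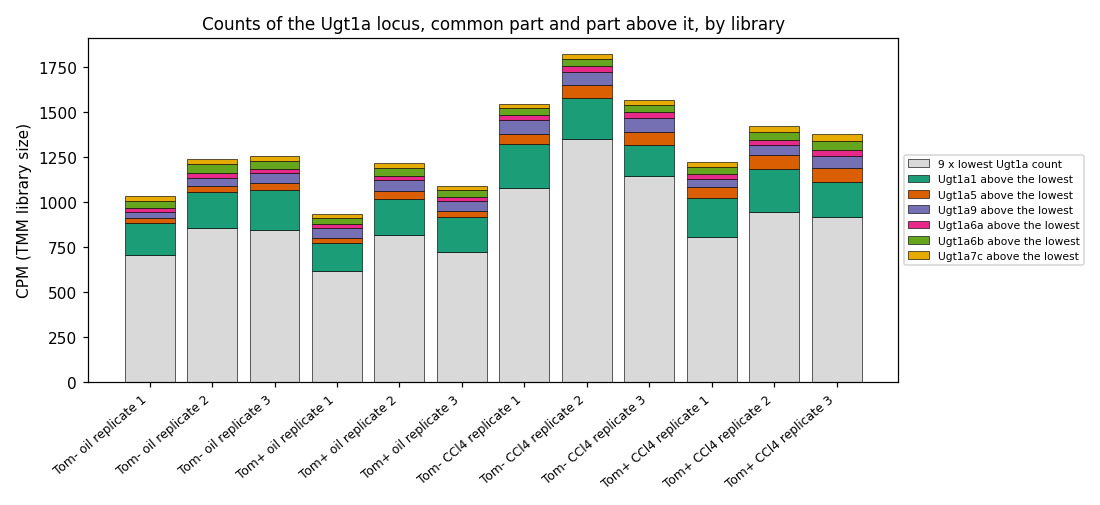
Stacked CPM of the 9 Ugt1a genes in each of the 12 libraries, with the lowest Ugt1a count taken 9 times in grey and the counts of 6 genes above it in colour (Ugt1a2, Ugt1a8 and Ugt1a10 add almost nothing and are not drawn). The grey part is 65.8% to 74.1% of the total, and the locus reaches 1548 to 1823 CPM in Tom- CCl4 against 932 to 1422 CPM elsewhere.

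Above the common part, Ugt1a9 was at 30.9, 41.9 and 52 CPM in Tom- oil, at 52.6, 61.3 and 55.3 CPM in Tom+ oil, at 77.8, 72.6 and 81.1 CPM in Tom- CCl4 and at 46.4, 53.6 and 67.8 CPM in Tom+ CCl4. The Tom- CCl4 libraries were above all the others. In Tom- the difference between CCl4 and oil was 0.89 (SE 0.17, adjusted p = 0.00482), which passed both thresholds, so that Ugt1a9 rose in this fit and 1 of 10 members was called, against 7.94% of all genes. The lowest of these oil values, 30.9 CPM, is from Tom- oil replicate 1, which was at odds with the reporter. No value without that library is given for the counts above the common part. In Tom+ the difference was -0.013 (SE 0.17, adjusted p = 0.976). The difference between these was -0.90 (SE 0.24, adjusted p = 0.0749), and its adjusted p was 0.00586 with the replicate block. For Ugt1a6a the part above the common one was 25.2 ± 3.14 CPM in Tom- oil and 29.1 ± 2.49 CPM in Tom- CCl4, and its difference of 0.21 (SE 0.13) had an adjusted p of 0.288, so that its call by adjusted p alone was lost. Between Tom+ and Tom- in CCl4 it differed by -0.034 (SE 0.13, adjusted p = 0.905, and 0.776 with the replicate block). Ugt1a6a shares 2170 exon bases with other Ugt genes, more than the 1311 common to all Ugt1a genes. Its part above the common one can therefore still hold shared reads. Ugt1a1 was at 201 ± 22 CPM in Tom- oil and 214 ± 36.4 CPM in Tom- CCl4 (0.09, SE 0.14, adjusted p = 0.69).

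Ugt1a5, a neighbour of the members with a first exon of 892 bases, moved in both fractions. Its part above the common one was 28.4, 36.6 and 39.8 CPM in Tom- oil, 29.3, 45.5 and 33.1 CPM in Tom+ oil, 58.5, 72.5 and 74.2 CPM in Tom- CCl4 and 61.6, 79.1 and 76.1 CPM in Tom+ CCl4. Every CCl4 library was above every oil library. It rose with CCl4 by 0.97 in Tom- (SE 0.17, adjusted p = 0.00357) and by 1.005 in Tom+ (SE 0.17, adjusted p = 0.00366), and these differed by 0.04 (SE 0.24, adjusted p = 0.952). Ugt1a6b and Ugt1a7c above the common part differed between CCl4 and oil by -0.21 and -0.09 in Tom- and by 0.21 and 0.37 in Tom+, with adjusted p from 0.079 to 0.643.

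**Figure D4:**
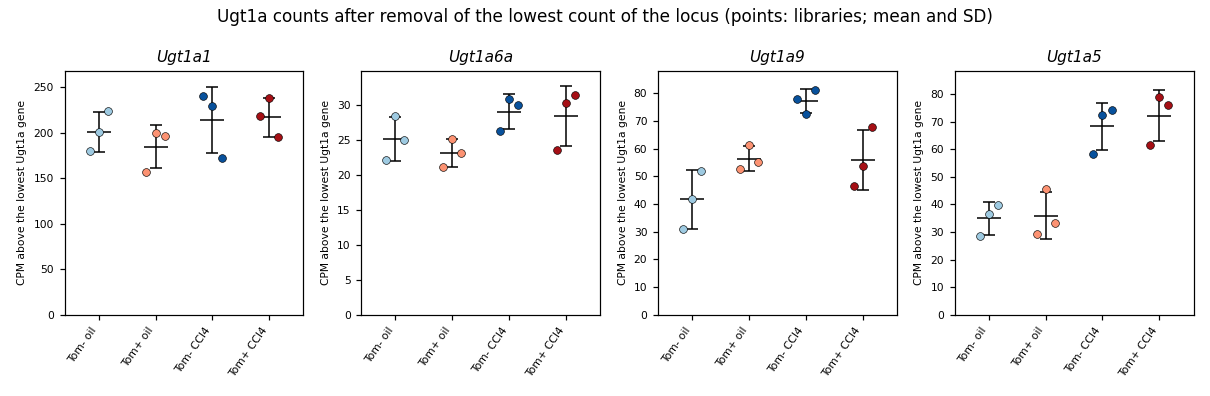
CPM above the lowest Ugt1a count of the library (vertical axes, from 0) for Ugt1a1, Ugt1a6a, Ugt1a9 and Ugt1a5, as points for the 12 libraries with the mean and SD of each group. Ugt1a9 is at 72.6 to 81.1 CPM in Tom- CCl4 and 30.9 to 67.8 CPM in the other groups, and Ugt1a5 is at 58.5 to 79.1 CPM in both CCl4 groups and 28.4 to 45.5 CPM in both oil groups.

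Among the 12 Ugt genes that are not members, 9 could be tested. Ugt3a1, the neighbour of Ugt3a2, was at 95.4, 101 and 100.3 CPM in Tom- oil, 79, 93.4 and 82.6 CPM in Tom+ oil, 28, 31 and 19.9 CPM in Tom- CCl4 and 22.7, 27.1 and 20.2 CPM in Tom+ CCl4. It fell with CCl4 in Tom- (log2 difference -1.91, SE 0.15, adjusted p = 6.90e-06, edgeR's quasi-likelihood test) and in Tom+ (-1.86, SE 0.15, adjusted p = 9.07e-06), and was the only one of the 9 called in either comparison. By adjusted p alone 5 of the 9 were higher in Tom-, all in the Ugt1a locus (Ugt1a2, Ugt1a5, Ugt1a7c, Ugt1a8 and Ugt1a10), against 9.37% of all genes. These are not separate results, since Ugt1a2, Ugt1a8 and Ugt1a10 hold almost only the common part. Above that part Ugt1a5 differed by 0.97 (adjusted p = 0.00357) and Ugt1a7c by -0.09 (adjusted p = 0.643). Ugt3a1 shared 7.6% of its 50-base words with other genes, most of these with Ugt3a2, whose differences were -0.27 and -0.55. Ugt2b37 was at 13.4 to 20.6 CPM in oil and 7.77 to 12.7 CPM in CCl4, with differences of -0.62 in Tom- (adjusted p = 0.0455) and -0.66 in Tom+ (adjusted p = 0.0463), short of the fold threshold. Ugt2a1, Ugt2a2 and Ugt8a did not pass the filter on low counts, and their group means were at or under 0.0184 CPM.

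Genes around the UGTs were taken from lists. UDP-glucuronic acid is made from glucose phosphate by phosphoglucomutase, UDP-glucose pyrophosphorylase (Ugp2) and UDP-glucose dehydrogenase (Ugdh). Of 7 supply genes, Pgm2 was the only one called, with rises of 0.78 in Tom- (SE 0.18, adjusted p = 0.0124) and 0.76 in Tom+ (SE 0.18, adjusted p = 0.0188), from 3.88 to 5.33 CPM in oil to 5.63 to 9.48 CPM in CCl4. Pgm1 was far more abundant, at 227 to 258 CPM in Tom- oil and 201 to 218 CPM in Tom- CCl4 (-0.22, adjusted p = 0.0748). By adjusted p alone in Tom-, 2 of the 7 were higher, against 9.37% of all genes. Ugp2 was the 1 that was lower (-0.34, SE 0.11, adjusted p = 0.0483), against 6.75%. Ugdh was at 77, 89.7 and 102 CPM in Tom- CCl4 and at 107, 130.4 and 140 CPM in Tom+ CCl4, without overlap (0.49, SE 0.12, adjusted p = 0.0298), below the fold threshold. In oil Ugdh was at 104 to 122 CPM in the libraries labelled Tom- and 91 to 99.1 CPM in those labelled Tom+ (-0.25, adjusted p = 0.708). The difference between these values was 0.74 (SE 0.17, adjusted p = 0.0473).

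Conjugates leave the hepatocyte through ABC transporters. Of 8 export and uptake genes, 2 rose and 2 fell with CCl4 in Tom+. Abcc4, which exports conjugates towards blood, rose from 1.79, 4.28 and 3.04 CPM to 14.8, 23.7 and 31.4 CPM (2.95, SE 0.49, adjusted p = 0.00591), and Abcc2, the canalicular exporter of bilirubin glucuronide, rose from 343 to 465 CPM to 628 to 852 CPM (0.79, SE 0.17, adjusted p = 0.0112). The uptake carriers Slco1a1 (-2.63, SE 0.42, adjusted p = 0.0061) and Slco1a4 (-1.03, SE 0.27, adjusted p = 0.039) fell. In Tom- the only gene of the list called was Slco1a1 (-3.10, SE 0.43, adjusted p = 0.00252). Within 7 genes of the bilirubin route, from heme oxygenase to Abcc2, the only call in edgeR's fit without a block was that of Abcc2 in Tom+. Blvrb, a biliverdin reductase, had an interaction of 0.93 (adjusted p = 0.084) in that fit, which was past both thresholds with the replicate block (0.92, adjusted p = 1.17e-04) and in DESeq2 (adjusted p = 0.0118). Of 5 genes that cleave glucuronides or use free glucuronate, Rgn, a lactonase of ascorbate synthesis, was at 447, 604 and 556 CPM in Tom+ oil and at 1378, 1529 and 1606 CPM in Tom+ CCl4 and rose by 1.49 (SE 0.13, adjusted p = 2.08e-05). Gulo, the last enzyme of that route, rose as well (2.73, SE 0.54, adjusted p = 0.0155), and neither was called in Tom-. Rgn was also called in the interaction (1.14, SE 0.18, adjusted p = 0.0107). The block changed the calls of Abcc4 and Gulo between Tom+ and Tom- in CCl4, from 0.97 (adjusted p = 0.234) to 0.96 (adjusted p = 4.40e-04) and from 0.90 (adjusted p = 0.343) to 0.90 (adjusted p = 4.72e-05). It also changed that of Gulo in oil, from -0.94 (adjusted p = 0.776) to -0.99 (adjusted p = 2.24e-04), and their interactions, to 1.47 for Abcc4 (adjusted p = 7.09e-04, against 0.249) and 1.90 for Gulo (adjusted p = 4.10e-06, against 0.224). Gusb, the lysosomal enzyme that cleaves glucuronides, was at 27.3 to 31.1 CPM in Tom- oil and 37.7 to 40.4 CPM in Tom- CCl4 (0.40, SE 0.09, adjusted p = 0.0107), below the fold threshold.

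Of 11 regulators that act on UGT genes, Ahr, the aryl hydrocarbon receptor, and Ppara, the fatty acid receptor, were called higher in Tom+ CCl4 than in Tom- CCl4. Ahr was at 31, 34.9 and 31.9 CPM in Tom- CCl4 and at 53.2, 58.3 and 53.6 CPM in Tom+ CCl4 (0.76, SE 0.17, adjusted p = 0.0261), and Ppara at 64.7, 46.1 and 56.5 CPM and at 115, 85.8 and 90.7 CPM (0.80, SE 0.16, adjusted p = 0.0133). Neither gene's groups overlapped. No regulator was called in the other comparisons in edgeR's fit without a block. With the block the interactions of Ahr (0.86, adjusted p = 5.10e-04, against 0.0835 without it), Ppara (0.81, adjusted p = 3.52e-04, against 0.0759) and Nr1i3 (0.82, adjusted p = 0.00473, against 0.383) were past both thresholds. DESeq2 gave adjusted p of 0.014 for Ahr, 0.0121 for Ppara and 0.214 for Nr1i3. Nr1i2, the pregnane X receptor, differed by -0.25 to -0.15 in the 4 comparisons, none past the test. The median over the regulators was 0.05 in Tom+ CCl4 against Tom- CCl4, beside 0.00418 for all genes.

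No member was called with both thresholds, so the search for genes of similar pattern was made for the 4 members past the adjusted p alone, a choice made after seeing the values. Likeness was the root mean square difference of mean-centred log2 CPM over the 12 libraries, among 13042 genes with a mean of at least 1 CPM. Among the genes nearest to Ugt2a3 were Slco2b1 at 0.072 and Slc33a1 at 0.0737, where its own SD over the libraries was 0.212. Among those nearest to Ugt3a2, with an SD of 0.25, were Cd59a (0.0957) and Scap (0.11). For Ugt1a6a the nearest were Ccdc163 (0.0904), Rnf215 (0.0945) and Kng2 (0.0959), and for Ugt1a9 Cpn1 (0.0999), Pld3 (0.1) and Fgfr4 (0.101), against SDs of 0.276 and 0.302. Cpn1 and Kng2 encode plasma proteins.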

How the data were processed

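The 12 bulk RNA-seq libraries were grouped by the labels of the authors. The processing notes of the authors name fastp (v0.23.2), HISAT2 (v2.1.0), the mm10 build and DESeq2 (v1.42.1). The counting program, annotation and strand setting are not given in the sources used here, and the exons of the 22 Ugt genes were those of GENCODE vM21. The deposited values are expected counts, not normalized, and per library 30.4% to 32.9% of values above 0 are not whole. They were rounded to whole numbers, since the tests were planned for counts.

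The rounded values went into edgeR (v4.0.16, R v4.3.3), with filterByExpr (17121 genes), TMM and the robust quasi-likelihood test in 1 fit of the 12 libraries with 4 group coefficients, tested on simulated data. Genes were called at a Benjamini-Hochberg adjusted p under 0.05 and a log2 fold change beyond 0.75. Standard errors come from the fit. A count of 3 is 0.0369 to 0.0829 CPM, which covers counting error only. TPM was computed from rounded counts and deposited lengths. Members, gene lists and the rule for named genes (all members in each comparison, called genes of each list, or else its highest ones, and the nearest genes by pattern) were chosen with earlier results of these data known.

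Deviations of same-numbered Tom+ and Tom- libraries from their group means correlated at 0.655, 0.504 and 0.707 in CCl4 and 0.479, 0.549 and 0.348 in oil over 8561 genes, so blocked values (replicate number as a block) are given for these comparisons where they change the call of a member or of a pathway gene with both thresholds. Marker lists are given by counts. Alternatives were the block, DESeq2 (v1.42.0), RLE, other filters, 6 libraries, left-out libraries, averaged fractions, Ugt1a counts above the lowest and, chosen after seeing the data, library totals and summed Ugt1a counts. Figures were drawn with Python and matplotlib. A few genes that met the rule for named genes are not reported here.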

Additional observations from a re-analysis of the deposited data

Results flagged for a closer look

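The difference between fractions was singled out for 3 members, Ugt1a9 and Ugt2b35 because its change from oil to CCl4 passed the adjusted p with the replicate block, and Ugt2b34 because every same-numbered pair lay one way in CCl4 and the other way in oil. Ugt1a9 had an interaction (Tom+ against Tom-, CCl4 minus oil) of -0.49 on the log2 scale (SE 0.17; adjusted p = 0.149, edgeR's quasi-likelihood test; -0.50 with the replicate block, adjusted p = 0.00844), and Tom+ was higher in 0 of 3 same-numbered pairs in CCl4 and in 2 of 3 in oil. Without the pair of oil libraries at odds with the reporter the value was -0.29 (adjusted p = 0.451). Ugt2b35 had an interaction of 0.44 (SE 0.29; adjusted p = 0.448; with the block 0.44, adjusted p = 0.0233), with Tom+ higher in 3 of 3 pairs in CCl4 and in 1 of 3 in oil, and was at 0.70 (adjusted p = 0.342) without that pair of libraries. Ugt2b34 had an interaction of 0.29 (SE 0.19; adjusted p = 0.444; with the block 0.29, adjusted p = 0.0575), and was at 0.45 (adjusted p = 0.35) without that pair of libraries. Tom+ was higher in 3 of 3 pairs in CCl4 and in 0 of 3 in oil, which is the rule that picked this gene and no support for it. The share of all genes with such pairs is not given. In oil, pairs 1 and 2 each hold a library at odds with the reporter. Over all 10 members 0 were called in the interaction with both thresholds, against 1.17% of all genes, 0 passed the adjusted p alone and 2 were at an unadjusted p under 0.05, while DESeq2 passed 0 by adjusted p alone and 2 without adjustment.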

How the results depend on the processing

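The count of members called with both thresholds was 0 in the 5 comparisons and changed as follows. By adjusted p alone it was 2 in Tom- and 2 in Tom+ (CCl4 against oil), with Ugt1a counts above the lowest it was 1 in Tom-, and over the single left-out libraries it ran from 0 to 1 in both (1 without Tom- oil replicate 3, which is Ugt1a9, and 1 without Tom+ oil replicate 2 or Tom+ CCl4 replicate 1, which is Ugt2b35). Depth was not limiting for the members, whose levels were far above the level of 3 counts. The ratio of the highest to the lowest member mean over the 12 libraries was 9.85 by TPM and 4.25 by CPM. With the replicate number as a block, CCl4 against oil had 3 higher and 1 lower member past the adjusted p alone in Tom- (22.1% of all genes) and 4 higher and 2 lower in Tom+ (14.4%), but these numbers do not pair libraries of different mice (correlations 0.0291, 0.111 and 0.0107 in Tom-, and 0.221, 0.00901 and 0.304 in Tom+).

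Every change of sign was in a value that had not passed the test. For Tom+ against Tom- in CCl4, Ugt1a1 turned to 0.018 above the lowest Ugt1a count and to 0.013 with library totals, and Ugt2b1 to 0.085 with library totals and to between -0.15 and 0.058 over left-out libraries. In oil, without the pair of libraries at odds with the reporter, Ugt1a9 turned to -0.16 and Ugt2a3 to -0.089, the blocked value of Ugt3a2 was 3.23e-04, and over left-out libraries Ugt1a9 ran from -0.056 to 0.14, Ugt2a3 from -0.073 to 0.084 and Ugt3a2 from -0.077 to 0.096. For CCl4 against oil in Tom-, Ugt2a3 ran from -0.15 to 0.012 over left-out libraries. In Tom+, Ugt1a9 turned to -0.013 above the lowest Ugt1a count, Ugt2b5 to 0.094 without that pair of libraries, 0.041 averaged over the fractions, 0.085 with library totals and between -0.12 and 0.088 over left-out libraries, and Ugt2b36 ran from -0.0048 to 0.16. The causes were not tested. Of the 4 members past the adjusted p alone, Ugt1a9 passed it in 22 of 22 alternatives, Ugt3a2 in 21 of 21, Ugt1a6a in 18 of 22 and Ugt2a3 in 14 of 21. The alternatives reuse the same libraries, some leave out a library of another group, and the average over fractions is another contrast, so they are not separate tests. Ugt1a6a did not pass above the lowest Ugt1a count (0.21, adjusted p = 0.288, edgeR's quasi-likelihood test).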
